A study of Homo sapiens with 24 samples.

Results

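The genes of 10 secreted proteins of cartilage matrix were followed: the large aggregating proteoglycans ACAN (aggrecan) and VCAN (versican), the link protein HAPLN1, the small leucine-rich proteoglycans DCN (decorin), BGN (biglycan), LUM (lumican), FMOD (fibromodulin), PRELP and OGN (osteoglycin, also called mimecan), and PRG4 (lubricin). They were found by symbol among the 62703 gene identifiers counted, and all 10 matched 1 identifier each. The libraries came from T/C-28a2 cells, an immortalised line of human chondrocytes, and numbered 24, with 4 replicates in each of 6 groups. WT Ctr and WT Sor were unedited, untransfected cells kept for 7 days in isotonic media (300 mOsm) or in media with 100 mM sorbitol (400 mOsm). WNK2 trans Ctr and WNK2 trans Sor were unedited cells transfected for 48 hours with a plasmid encoding wild-type WNK2, a kinase of the osmotic stress response, and then kept for 7 days in the same 2 media. WNK2- Ctr and WNK2- Sor were cells in which CRISPR/Cas9 had removed exon 2 of WNK2, again in either medium. Such cells were grown from single sorted clones, so that a feature of the clone and the loss of WNK2 cannot be told apart. All of these media held 2% serum, and no empty-vector or mock transfection is named for the untransfected cells. The replicates of a group were separate samples of 1 line, and p-values measure the spread between them.

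Aggrecan and versican are core proteins that carry many chondroitin sulfate chains and bind hyaluronan, and the link protein locks that binding in place. Their fixed negative charges draw ions and water into cartilage, which lets it bear load and makes it hyperosmotic. The small leucine-rich proteoglycans bind collagen fibrils and growth factors and set fibril width, with decorin and biglycan of class I carrying chondroitin or dermatan sulfate, lumican, fibromodulin and PRELP of class II carrying keratan sulfate or none, and osteoglycin of class III. Lubricin is made at the cartilage surface and by the synovial lining, where it lowers friction.

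Total counts per library ran from 14153002 to 25664619, and those of the WNK2- groups (18578564 to 25664619) were above those of WT Ctr and WT Sor (14153002 to 17588934). The targeted gene, WNK2, had 2568, 1217, 1972 and 2568 reads in the 4 WT Ctr libraries, 266, 267, 314 and 277 in WT Sor, 440, 443, 450 and 501 in WNK2- Ctr and 498, 503, 322 and 393 in WNK2- Sor. It had 238, 290, 163 and 253 in the libraries labelled WNK2 trans Ctr and 3152, 2237, 2516 and 3739 in those labelled WNK2 trans Sor. Against their label, the WNK2 trans Ctr libraries had less WNK2 than WT Ctr, with a log2 fold change of -3.32 ± 0.21 (SE, edgeR adjusted p = 3.88e-11), which touches every direction drawn from them. WT Sor libraries also had less WNK2 than WT Ctr, 8.33-fold, at -3.06 ± 0.21 (SE, edgeR adjusted p = 1.52e-10). The libraries labelled WNK2 trans Sor did not pass the test for more WNK2 than WT Ctr, at 0.27 ± 0.19 (SE, edgeR adjusted p = 0.274). By WNK2 counts WT Sor thus overlapped WNK2 trans Ctr, and WT Ctr overlapped WNK2 trans Sor. The paper's own normalised counts, in contrast, list similar WNK2 levels in all of these unedited groups. It reports no significant change of WNK2 with sorbitol or with transfection, unlike the WT Sor and WNK2 trans Ctr libraries here. Whether labels or files were exchanged among WT Sor and the WNK2 trans groups was not tested, which bears on what each direction means in the comparisons that use these groups, those of sorbitol in WT cells among them. Counts over a whole gene do not check a deletion of 1 exon. Groups are called by their labels throughout.

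The counts leave out genes that lie within others. Of 1623 protein-coding genes that lie wholly inside other genes in GENCODE 29, 1585 (97.7%) were listed at 0 in all 24 libraries, against 10.4% of 6863 with no base inside another gene. The share was 98.7% for genes inside others of the opposite strand only and 95.8% for those inside others of the same strand only. Among the 10 genes this concerns OGN, all of whose exon bases lie inside other genes, and in part VCAN (58.8% of exon bases), PRG4 (23.9%) and BGN (7.13%). No exon base of ACAN, HAPLN1, DCN, LUM, FMOD or PRELP lies inside another gene of that annotation.

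Of the 10 genes, 7 passed the filter on low counts (ACAN, VCAN, HAPLN1, DCN, BGN, LUM and PRG4) and were tested among 16600 genes. FMOD, PRELP and OGN had at most 11 reads in any library and are given by their counts with no test. Levels are compared between genes as CPM (read counts scaled to library size by TMM) per kb of annotated exon. In what follows, ± gives the SD of a mean CPM and the standard error (SE) of a log2 fold change, and a gene is called where the adjusted p is under 0.05. Whether libraries or groups lie above, below or across each other is judged in CPM, also where read counts are printed. BGN was the most abundant of the 10 in every group, at 93.4 CPM per kb in WT Ctr, and HAPLN1 followed at 11.6. LUM (2.40 CPM per kb), VCAN (0.712) and ACAN (0.298) came next in WT Ctr, and none of these ranges overlapped that of its neighbour. PRG4 (0.0543 CPM per kb) and DCN (0.0406) stood below them with overlapping ranges. Aggrecan, the main proteoglycan of cartilage, thus stood below biglycan, link protein, lumican and versican in this line. The order of the first 5 was the same in WT Sor, WNK2 trans Ctr and WNK2 trans Sor, although in the libraries labelled WNK2 trans Ctr the ranges of HAPLN1 and LUM overlapped, as did those of VCAN and ACAN. In both WNK2- groups BGN and HAPLN1 kept the first 2 places and PRG4 came next, at 0.109 CPM per kb in WNK2- Ctr, above ACAN (0.0656), LUM (0.0498) and VCAN (0.0207). The PRG4 range lay above that of ACAN in WNK2- Ctr and overlapped that of VCAN, the next gene, in WNK2- Sor. Because VCAN and PRG4 lie partly inside other genes, their levels per kb may be understated next to the rest.

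**Figure D1:**
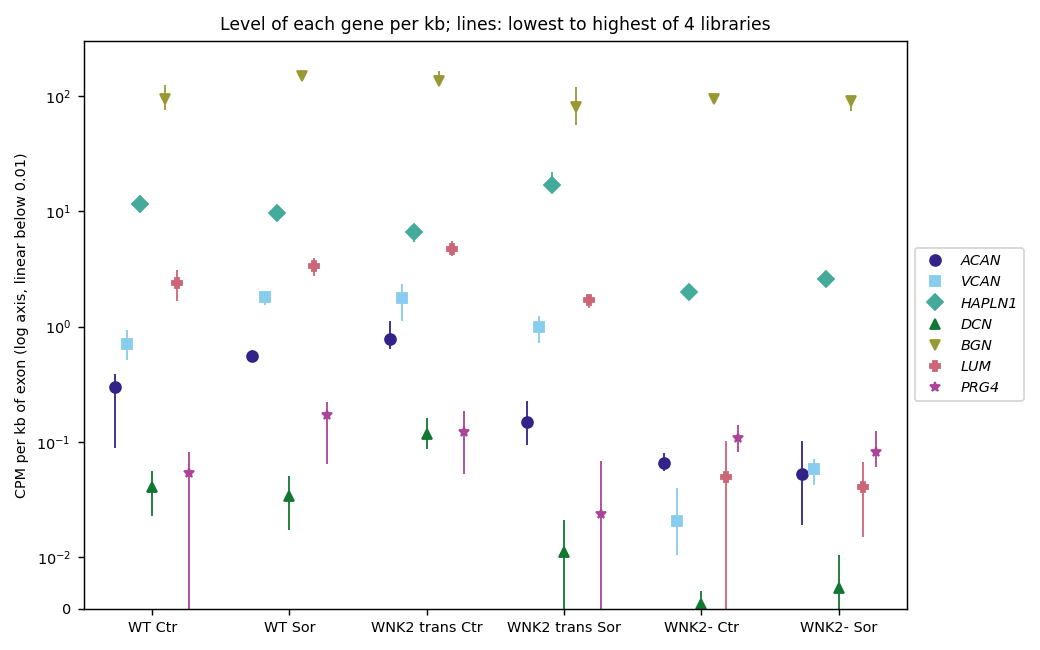
Level of each of the 7 tested genes (CPM per kb of exon, log axis that is linear below 0.01) in the 6 groups; symbols are means and lines run from the lowest to the highest of 4 libraries. BGN and HAPLN1 are the upper 2 symbols in every group, and ACAN, VCAN, LUM and DCN sit lowest in the WNK2- groups.

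The promoters of ACAN, BGN and PRG4 are shown because ACAN was lower in WNK2- cells in both media, BGN under sorbitol alone and PRG4 in neither, as described further on. Each is from RefSeq (GRCh38.p14, plus strand) and ends before the first annotated exon base. Capitals mark every match, on either strand, to 5 words. These were the GC box GGGCGG, known to be bound by SP factors, and the TATA box word TATAA, where the transcription machinery is placed. The next was ACAAAG, a word that SOX factors bind, with its variant form that ends in ATG (ACAATG). The last was TGGAAA, the core of the element bound by NFAT5 under hypertonic stress.
ACAN, chr15:88803186-88803435: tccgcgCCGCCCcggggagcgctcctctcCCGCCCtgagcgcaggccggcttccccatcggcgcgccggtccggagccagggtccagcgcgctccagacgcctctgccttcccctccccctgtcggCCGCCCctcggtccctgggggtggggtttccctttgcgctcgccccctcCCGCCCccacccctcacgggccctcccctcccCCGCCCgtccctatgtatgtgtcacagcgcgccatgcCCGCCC
BGN, chrX:153494730-153494938: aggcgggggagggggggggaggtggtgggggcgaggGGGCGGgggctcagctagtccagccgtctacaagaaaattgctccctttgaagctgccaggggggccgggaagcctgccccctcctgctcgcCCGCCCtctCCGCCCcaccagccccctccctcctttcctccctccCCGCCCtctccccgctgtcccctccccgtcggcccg
PRG4, chr1:186296023-186296272: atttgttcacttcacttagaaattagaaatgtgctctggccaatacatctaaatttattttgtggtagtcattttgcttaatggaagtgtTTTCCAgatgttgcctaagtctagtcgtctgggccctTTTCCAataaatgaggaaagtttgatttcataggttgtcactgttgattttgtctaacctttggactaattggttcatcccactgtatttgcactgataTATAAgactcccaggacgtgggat
The ACAN window of 250 bases held GGGCGG or its reverse complement 6 times and the BGN window of 209 bases 4 times, with no match to the remaining words in either. Of all 35116 RefSeq promoter windows, 42.6% held the GC box word at least once in 250 bases and 36.9% in 209. The PRG4 window had no GC box word, 1 TATAA (held by 18.9% of windows) and 2 matches to TGGAAA, both on the minus strand and printed as TTTCCA (held by 18.0%). G and C made up 77.2% of the ACAN window, 74.2% of the BGN window and 37.2% of the PRG4 window, with a median of 58.0% over all windows. ACAN and BGN thus have GC-rich windows without a TATAA word, and PRG4 an AT-rich one with it. These matches describe the letters only.

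ACAN, VCAN and BGN were higher with sorbitol in WT cells and lower with sorbitol within the transfection labels. In WT cells 3 were higher with sorbitol and 0 lower, where 11.4% of all tested genes were higher and 12.7% lower. Within the transfection labels 1 was higher and 6 were lower, where 24.3% of all tested genes were higher and 23.7% lower. The difference between these responses passed the test for all 7, with 6 negative and 1 positive interactions, where 18.1% of all tested genes were higher and 17.4% lower. In WNK2- cells 2 were higher with sorbitol and 0 lower, where 8.25% of all tested genes were higher and 6.64% lower. In the WNK2- cells most of these genes were lower than in WT cells: 5 of 7 were lower and 0 higher in WNK2- Ctr than in WT Ctr, where 20.7% of all tested genes were higher and 21.5% lower, and 6 were lower and 0 higher under sorbitol, where 23.7% of all tested genes were higher and 22.7% lower. The median log2 fold change of the 7 was -2.56 in isotonic media and -2.79 under sorbitol, beside medians over all tested genes of 0.0020 and 0.020. TMM scaling holds the median over all genes near 0, and the 7 were chosen with earlier results of these data known. These medians therefore only describe the 7.

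The libraries labelled WNK2 trans Ctr had 4 genes higher and 1 lower than WT Ctr, where 5.57% of all tested genes were higher and 6.98% lower. Those labelled WNK2 trans Sor had 1 higher and 5 lower than WT Sor, where 16.1% of all tested genes were higher and 15.5% lower. A pair of comparisons was added after the WNK2 counts had been seen, between groups that resemble each other in WNK2. Between WNK2 trans Ctr and WT Sor, both low in WNK2, 1 gene was higher and 1 lower, where 6.31% of all tested genes were higher and 8.74% lower. Between WNK2 trans Sor and WT Ctr, both high in WNK2, 1 was higher and 2 were lower, where 19.8% of all tested genes were higher and 19.5% lower. The response to sorbitol differed between WNK2- and WT cells for 1 of the 7, with a positive interaction, and for 0 with a negative one, where 3.99% of all tested genes were higher and 4.66% lower. Where the count was 0, HAPLN1 alone had an unadjusted p under 0.05 among lower genes with sorbitol in WT cells (DESeq2 called 0), and 3 did among negative interactions with genotype (DESeq2 called 1, BGN). In the remaining cases the unadjusted count and that of DESeq2 were also 0. Several of these comparisons share WT Ctr or WT Sor libraries. Of the 34 values called in the 7 pairwise comparisons of the design, 30 came from groups whose ranges did not overlap. The same share was not taken over all called genes, so this count only describes the members.

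**Figure D2:**
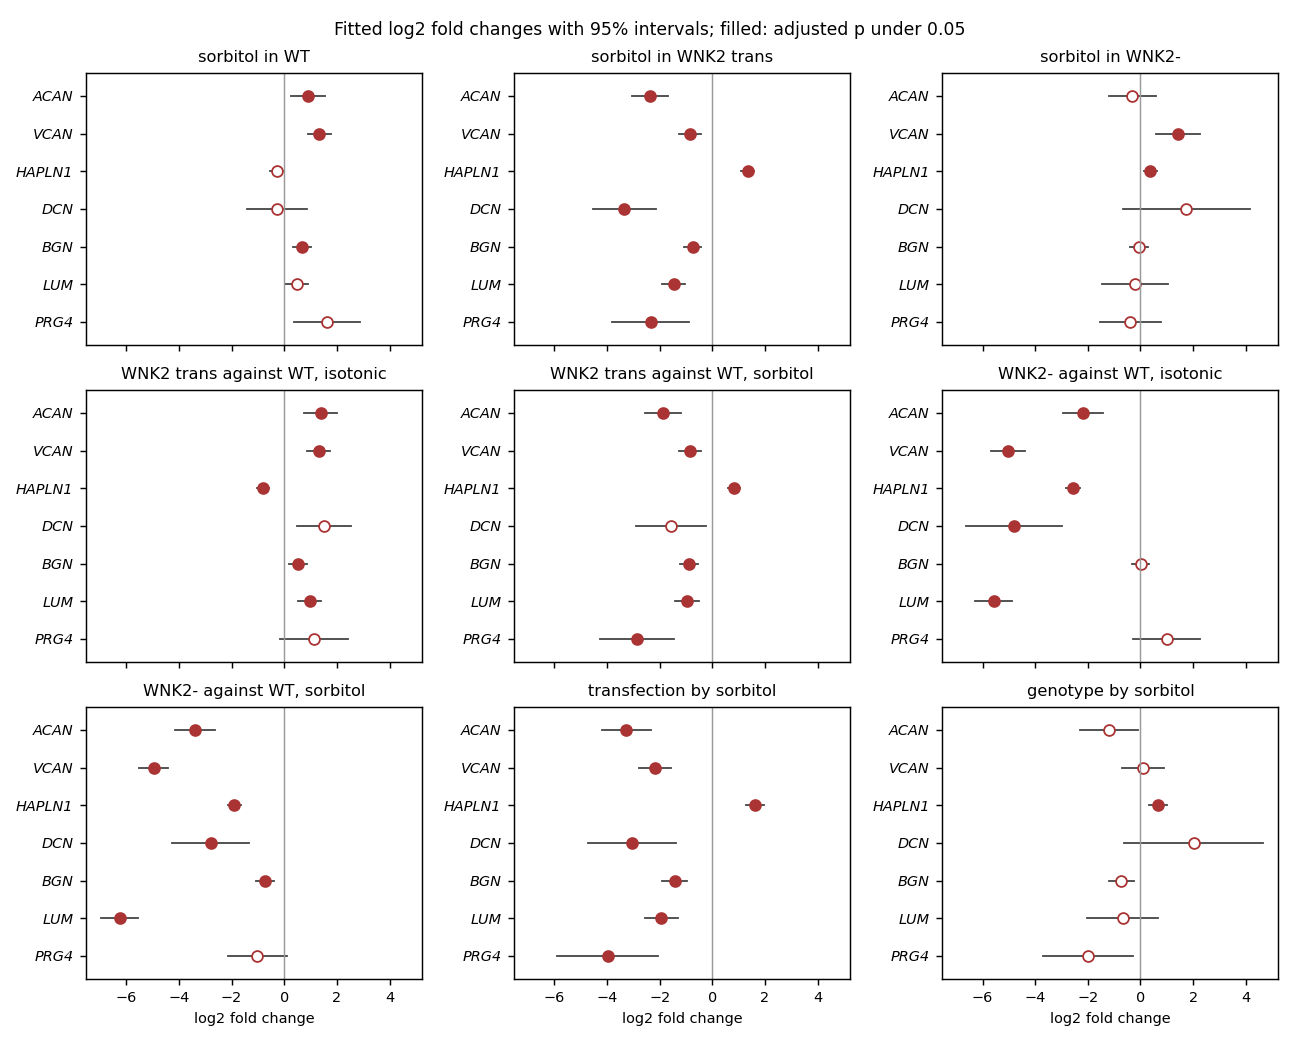
Fitted log2 fold changes (points) with 95% intervals (lines) of the 7 tested genes in 9 comparisons; filled points have an edgeR adjusted p under 0.05. HAPLN1 lies on the other side of 0 from the remaining 6 genes within the transfection labels, and LUM, VCAN and DCN lie farthest to the left in WNK2- cells in isotonic media.

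ACAN (ENSG00000157766, GRCh38 chromosome 15, 88803442 to 88875354) encodes aggrecan. It was counted at 64, 15, 63 and 57 in the 4 WT Ctr libraries and at 116, 90, 98 and 111 in WT Sor, and every WT Sor library lay above every WT Ctr library. The difference, 1.87-fold, had a log2 fold change of 0.90 ± 0.33 (SE, edgeR adjusted p = 0.0469). Replicate 2 of WT Ctr stood apart from the other 3, and without it the log2 fold change was 0.60 (edgeR adjusted p = 0.147). The call was also lost without WT Ctr replicate 3 or any 1 of the 4 WT Sor replicates, with edgeR's adjusted p at 0.0340 to 0.147 over the 8 fits that left out 1 library. The libraries labelled WNK2 trans Ctr had the highest counts, 179, 159, 113 and 124, or 8.47 ± 2.46 CPM (SD, n = 4) against 3.25 ± 1.54 in WT Ctr, a log2 fold change of 1.38 ± 0.33 (SE, edgeR adjusted p = 0.00524). Those labelled WNK2 trans Sor had 27, 23, 18 and 49 reads and lay wholly below both WT Sor and WNK2 trans Ctr. With sorbitol ACAN was thus 5.15-fold lower within the transfection labels, a log2 fold change of -2.36 ± 0.35 (SE, edgeR adjusted p = 4.38e-06), and the interaction with transfection was -3.27 ± 0.48 (SE, edgeR adjusted p = 7.48e-06). WNK2- Ctr cells had 17, 14, 13 and 15 reads and WNK2- Sor cells 11, 13, 4 and 22, both below every WT library of the same medium in CPM, though not in reads for WNK2- Ctr. ACAN was 4.51-fold lower in WNK2- than in WT cells in isotonic media and 10.4-fold lower under sorbitol, at -2.17 ± 0.39 (SE, edgeR adjusted p = 7.53e-05) and -3.38 ± 0.39 (SE, edgeR adjusted p = 8.09e-08). Under sorbitol the transfected cells had less ACAN than WT Sor (-1.89 ± 0.35 SE, edgeR adjusted p = 0.000179). No response to sorbitol was called within WNK2- cells, where the 95% interval of the log2 fold change ran from -1.20 to 0.59, and the interaction with genotype was -1.21 ± 0.56 (SE, edgeR adjusted p = 0.191). In bulk RNA, fewer cells that express a gene and less RNA per cell cannot be told apart, here and in what follows.

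VCAN (ENSG00000038427, GRCh38 chromosome 5, 83471465 to 83582303) encodes versican, the widely expressed relative of aggrecan found in provisional and loose matrix. WT Ctr libraries held 115, 129, 212 and 192 reads and WT Sor libraries 429, 465, 501 and 414, with no overlap and a log2 fold change of 1.33 ± 0.22 (SE, edgeR adjusted p = 0.000102). The libraries labelled WNK2 trans Ctr, at 511, 636, 269 and 409 reads, lay above WT Ctr as well (1.31 ± 0.22 SE, edgeR adjusted p = 0.000149), and their mean of 26.3 ± 7.54 CPM was beside 26.6 ± 3.09 in WT Sor (SD, n = 4). That last difference had a 95% interval of -0.43 to 0.39 on the log2 scale. WNK2 trans Sor libraries held 162, 282, 321 and 285 reads, a log2 fold change of -0.84 ± 0.21 (SE, edgeR adjusted p = 0.00245) against WNK2 trans Ctr with overlapping ranges. They also lay below WT Sor (-0.85 ± 0.21 SE, edgeR adjusted p = 0.00359), and the interaction with transfection was -2.17 ± 0.31 (SE, edgeR adjusted p = 4.88e-06). The WNK2- cells held few versican reads, with 3, 5, 5 and 13 in WNK2- Ctr and 20, 14, 20 and 20 in WNK2- Sor. This was 33.0-fold below WT in isotonic media and 31.0-fold below under sorbitol, with log2 fold changes of -5.05 ± 0.33 (SE, edgeR adjusted p = 7.45e-12) and -4.95 ± 0.28 (SE, edgeR adjusted p = 2.03e-13). From that low level VCAN still rose 2.68-fold with sorbitol in WNK2- cells (1.42 ± 0.43 SE, edgeR adjusted p = 0.0232), and the interaction with genotype was 0.091 ± 0.41 (SE, edgeR adjusted p = 0.923). The call in WNK2- cells was lost without any 1 of WNK2- Ctr replicates 1, 2 and 3 or WNK2- Sor replicates 3 and 4, with adjusted p of 0.00804 to 0.0885 by edgeR over the 8 fits that left out 1 library, and when all libraries were thinned to the smallest total (adjusted p = 0.0850).

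**Figure D3:**
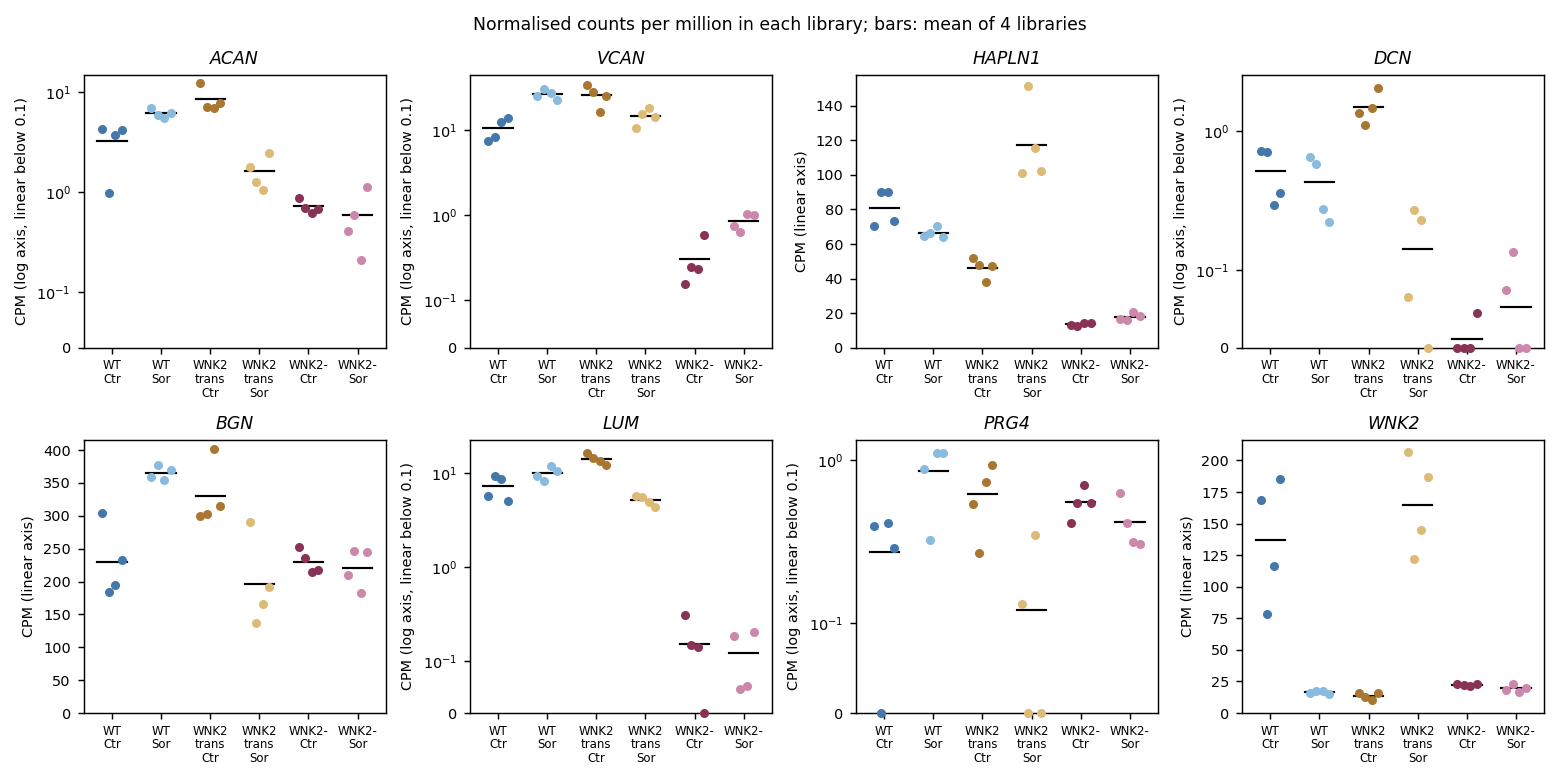
Normalised CPM of the 7 tested genes and of WNK2 in each of the 24 libraries, with bars at the mean of 4; HAPLN1, BGN and WNK2 are on linear axes and the others on log axes that are linear below 0.1. ACAN, VCAN, LUM and BGN are high in WT Sor and WNK2 trans Ctr, and HAPLN1 is highest in WNK2 trans Sor. WNK2 is low in WT Sor and WNK2 trans Ctr and also in both WNK2- groups, where ACAN, VCAN and LUM are lowest.

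HAPLN1 (ENSG00000145681, GRCh38 chromosome 5, 83637805 to 83721613) encodes the link protein that fastens aggrecan and versican to hyaluronan, and it was called in the opposite direction to them with sorbitol within the transfection labels and between transfected and WT cells in the same medium. It lies on the opposite strand next to VCAN, 55.5 kb away. WT Ctr libraries held 1076, 1400, 1529 and 1011 reads and WT Sor libraries 1094, 1017, 1279 and 1155, and the ranges overlapped after normalisation (-0.29 ± 0.12 SE, edgeR adjusted p = 0.0878). The counts were 769, 1077, 619 and 758 in the libraries labelled WNK2 trans Ctr and 1540, 2765, 2008 and 2046 in those labelled WNK2 trans Sor. In CPM these were the lowest and the highest of the 4 unedited groups, 46.4 ± 6.01 and 117 ± 23.4 (SD, n = 4), with no overlap. Within the transfection labels HAPLN1 was therefore 2.53-fold higher with sorbitol, at 1.34 ± 0.12 (SE, edgeR adjusted p = 2.28e-09), and the interaction with transfection was 1.63 ± 0.17 (SE, edgeR adjusted p = 6.10e-08). Against the untransfected cells of the same medium it was lower in WNK2 trans Ctr (-0.81 ± 0.12 SE, edgeR adjusted p = 4.39e-05) and higher in WNK2 trans Sor (0.82 ± 0.12 SE, edgeR adjusted p = 1.12e-05). WNK2- cells held 260, 258, 308 and 318 reads in isotonic media and 449, 357, 395 and 357 with sorbitol, 5.88-fold and 3.70-fold below WT, at -2.56 ± 0.13 (SE, edgeR adjusted p = 8.04e-14) and -1.89 ± 0.13 (SE, edgeR adjusted p = 5.93e-12). A rise of 1.30-fold with sorbitol in WNK2- cells passed narrowly (0.38 ± 0.13 SE, edgeR adjusted p = 0.0452) and was lost in 7 of the 8 fits that left out 1 library, all but that without WNK2- Sor replicate 2. HAPLN1 was the 1 member whose response to sorbitol differed between WNK2- and WT cells, with an interaction of 0.67 ± 0.18 (SE, edgeR adjusted p = 0.0191). It did not pass without WT Ctr replicate 2, WNK2- Ctr replicate 2 or WNK2- Sor replicate 3, where edgeR's adjusted p was 0.0507 to 0.0570.

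DCN (ENSG00000011465, GRCh38 chromosome 12, 91140484 to 91183123) encodes decorin, which binds collagen and TGF-beta. It was a rare transcript here, with 11, 11, 5 and 5 reads in WT Ctr, 11, 9, 5 and 4 in WT Sor and 20, 25, 24 and 33 in the libraries labelled WNK2 trans Ctr, which lay above every other library. WNK2 trans Sor libraries held 1, 5, 4 and 0 reads, WNK2- Ctr 0, 0, 0 and 1 and WNK2- Sor 2, 3, 0 and 0. The fall with sorbitol within the transfection labels passed at -3.34 ± 0.61 (SE, edgeR adjusted p = 8.27e-05), a ratio of summed counts of 10.4-fold (counting interval 5.44 to 22.4). Between WT Ctr and WNK2- Ctr the summed counts were 32 and 1, a 43.1-fold (counting interval 7.20 to 1754) lower level that also passed (edgeR adjusted p = 0.000177). Under sorbitol the sums were 29 and 5, 7.43-fold (counting interval 2.85 to 24.6) lower in WNK2- cells (edgeR adjusted p = 0.00342). These intervals cover counting error only. The interaction with transfection passed at -3.06 ± 0.86 (SE, edgeR adjusted p = 0.00701). No change was detectable at this depth with sorbitol in WT cells, with a 95% interval of -1.41 to 0.86 on the log2 scale, or in WNK2- cells (-0.65 to 4.15). Transfected against untransfected cells gave no edgeR call in isotonic media (1.51 ± 0.53 SE, edgeR adjusted p = 0.0597) or under sorbitol (-1.56 ± 0.68 SE, edgeR adjusted p = 0.0813), though DESeq2 called the first (adjusted p = 0.0274).

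BGN (ENSG00000182492, GRCh38 chromosome X, 153494939 to 153509554) encodes biglycan, the other class I member, which binds collagen and can signal through innate immune receptors when released. Unlike HAPLN1, the next most abundant, it was not called in WNK2- cells in isotonic media. The 4 WT Ctr libraries had 4638, 2865, 3313 and 3214 reads and the 4 WNK2- Ctr libraries 4897, 4736, 4560 and 4786, or 229 ± 54.2 and 229.8 ± 17.9 CPM (SD, n = 4). The log2 fold change was 0.0036 ± 0.17 (SE, edgeR adjusted p = 0.988), with a 95% interval of -0.33 to 0.34. WT Sor libraries had 6054, 5799, 6410 and 6651 reads of BGN and lay above every WT Ctr library (0.67 ± 0.17 SE, edgeR adjusted p = 0.00580). WNK2- Sor libraries held 5663, 5431, 3461 and 4825, with a 95% interval for the change with sorbitol in WNK2- cells of -0.39 to 0.28, and BGN was 1.65-fold lower there than in WT Sor (-0.72 ± 0.17 SE, edgeR adjusted p = 0.00115). The difference between the responses of the 2 genotypes did not pass (-0.73 ± 0.24 SE, edgeR adjusted p = 0.0608), while DESeq2 gave -0.72 (adjusted p = 0.0380). Libraries labelled WNK2 trans Ctr had 4428, 6772, 6571 and 5024 reads and those labelled WNK2 trans Sor 4436, 2494, 2871 and 3828. The second set was lower than the first, at -0.75 ± 0.17 (SE, edgeR adjusted p = 0.000847), and lower than WT Sor, at -0.90 ± 0.17 (SE, edgeR adjusted p = 0.000277), and the interaction with transfection was -1.42 ± 0.24 (SE, edgeR adjusted p = 5.69e-05). The higher level in WNK2 trans Ctr than in WT Ctr (0.52 ± 0.17 SE, edgeR adjusted p = 0.0443) came with overlapping ranges and was lost in 7 of the 8 fits that left out 1 library, all but that without WT Ctr replicate 1.

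LUM (ENSG00000139329, GRCh38 chromosome 12, 91102629 to 91111831) encodes lumican, a keratan sulfate proteoglycan of class II that lies beside DCN, 28.7 kb from it. Its reads numbered 88, 145, 148 and 70 in WT Ctr and 157, 127, 216 and 191 in WT Sor, with overlap and no call (0.47 ± 0.22 SE, edgeR adjusted p = 0.127). The libraries labelled WNK2 trans Ctr held 243, 325, 222 and 195 and lay above all others in CPM, though not in reads (0.97 ± 0.22 SE, edgeR adjusted p = 0.00368 against WT Ctr). Those labelled WNK2 trans Sor held 87, 102, 85 and 88, a fall within the transfection labels of -1.47 ± 0.22 (SE, edgeR adjusted p = 8.19e-06), and the interaction was -1.94 ± 0.32 (SE, edgeR adjusted p = 3.24e-05). In WNK2- cells LUM was close to its counting floor, with 6, 3, 3 and 0 reads in WNK2- Ctr and 5, 1, 1 and 4 in WNK2- Sor. LUM thus had the largest fitted fall of the 7 genes in both media, -5.58 ± 0.36 (SE, edgeR adjusted p = 4.59e-12) and -6.25 ± 0.35 (SE, edgeR adjusted p = 2.16e-13). The ratios of summed counts were 50.6-fold (counting interval 28.7 to 98.7) and 80.5-fold (counting interval 44.7 to 162). Under sorbitol the transfected cells had less LUM than WT Sor (-0.97 ± 0.23 SE, edgeR adjusted p = 0.00191). With sorbitol in WNK2- cells the 95% interval was -1.45 to 1.04 on the log2 scale, and the interaction with genotype was -0.67 ± 0.69 (SE, edgeR adjusted p = 0.599). For WNK2- against WT, over the fits that left out 1 library, the log2 fold change ran from -6.15 to -5.15 in isotonic media and from -6.57 to -5.98 under sorbitol.

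FMOD (ENSG00000122176, GRCh38 chromosome 1, 203340628 to 203351758) encodes fibromodulin, a relative of lumican that competes with it for collagen. It was listed at 0, 0, 0 and 1 reads in WT Ctr, 3, 4, 4 and 6 in WT Sor, 2, 8, 6 and 5 in the libraries labelled WNK2 trans Ctr and 2, 2, 0 and 0 in those labelled WNK2 trans Sor. All 8 WNK2- libraries were at 0, so that FMOD was at least 7.26-fold lower in WNK2- Sor than in WT Sor when 3 reads over the group are taken as the floor. A fold cannot be given in isotonic media, where both groups were under the floor. WT Sor held 17 reads against 1 in WT Ctr, a ratio of 15.3-fold (counting interval 2.40 to 640.0). Most FMOD reads thus came from WT Sor and WNK2 trans Ctr, the groups highest in ACAN and VCAN, at counts too low for the test.

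PRELP (ENSG00000188783, GRCh38 chromosome 1, 203475828 to 203491352) encodes a class II protein that anchors basement membranes to connective tissue, and lies 124 kb from FMOD. Its counts did not follow the others: they were 0, 0, 0 and 0 in WT Ctr, 6, 0, 4 and 0 in WT Sor, 0, 0, 0 and 0 in WNK2 trans Ctr, 1, 5, 0 and 5 in WNK2 trans Sor, 0, 2, 7 and 7 in WNK2- Ctr and 3, 11, 3 and 4 in WNK2- Sor. WNK2- Ctr was at least 3.96-fold above WT Ctr by summed counts (16 against 0), with 1 of its 4 libraries at 0. A count of 0 in 1 library allows a level of up to 0.117 to 0.212 CPM, depending on its depth. Ranges of WNK2- Ctr and WNK2- Sor overlapped.

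OGN (ENSG00000106809, GRCh38 chromosome 9, 92383967 to 92404696) was listed at 0 in all 24 libraries. Its exons share no base with those of another gene in GENCODE 29 but lie wholly inside the span of others, and 3 genes of leucine-rich proteins with that feature, ASPN, OMD and ECM2, were also at 0 throughout. The 0 therefore gives no level for osteoglycin. It lies on chromosome 9 at 780.2 kb from WNK2.

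PRG4 (ENSG00000116690, GRCh38 chromosome 1, 186296279 to 186314562) encodes lubricin. Counts were 6, 0, 7 and 4 in WT Ctr, 15, 5, 20 and 20 in WT Sor, 8, 6, 12 and 15 in the libraries labelled WNK2 trans Ctr and 2, 0, 6 and 0 in those labelled WNK2 trans Sor. Fewer reads with sorbitol within the transfection labels passed the test (-2.35 ± 0.74 SE, edgeR adjusted p = 0.0113), as did the lower level of WNK2 trans Sor against WT Sor (-2.85 ± 0.72 SE, edgeR adjusted p = 0.00361), both with overlapping ranges, and the interaction (-3.98 ± 0.98 SE, edgeR adjusted p = 0.00262). The value in WT cells, 1.63 ± 0.64 (SE, edgeR adjusted p = 0.0657), did not pass with edgeR and passed with DESeq2 (adjusted p = 0.0262). WNK2- Ctr libraries held 8, 11, 15 and 12 reads and WNK2- Sor 17, 9, 6 and 6. Unlike the falls of ACAN, VCAN and LUM, the differences of PRG4 from WT were not called in either medium by the fit of all groups, with 95% intervals of the log2 fold change of -0.29 to 2.27 in isotonic media and -2.15 to 0.11 under sorbitol. The second was called lower in a fit of the compared groups alone (-1.02, edgeR adjusted p = 0.0334). Transfected cells in isotonic media gave 1.13 ± 0.66 (SE, edgeR adjusted p = 0.288) against WT Ctr, and sorbitol in WNK2- cells -0.38 ± 0.59 (SE, edgeR adjusted p = 0.738), neither of them called. Within the exons of PRG4, 13.3% of bases are shared with exons of TPR in the annotation.

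By mean CPM, ACAN was highest in WNK2 trans Ctr and then, in falling order, in WT Sor, WT Ctr and WNK2 trans Sor, with WNK2- cells lowest (isotonic above sorbitol). Only WT Ctr and WNK2 trans Sor, and the pair of WNK2- groups, overlapped among neighbours. LUM had the same order, with overlap of WT Ctr with WT Sor and with WNK2 trans Sor, and between the WNK2- groups. For VCAN, WT Sor and WNK2 trans Ctr overlapped at the top, WNK2 trans Sor overlapped both WNK2 trans Ctr and WT Ctr, and WNK2- Sor lay above WNK2- Ctr. HAPLN1 ran from WNK2 trans Sor through WT Ctr, WT Sor and WNK2 trans Ctr to WNK2- Sor and WNK2- Ctr, with overlap between WT Ctr and WT Sor alone among neighbours. For BGN the 4 groups with lower means (WNK2- Ctr, WT Ctr, WNK2- Sor and WNK2 trans Sor) overlapped between neighbours. WT Sor and WNK2 trans Ctr had the 2 highest means and overlapped each other, and the range of WNK2 trans Ctr also overlapped that of WT Ctr. DCN stood highest in WNK2 trans Ctr, and neighbours among its 5 lower groups overlapped. For PRG4 all neighbours in the order overlapped. The groups labelled WNK2 trans Ctr and WT Sor differed by a call in 2 of the 7 genes, DCN (1.78 ± 0.53 SE, edgeR adjusted p = 0.0230) and HAPLN1 (-0.52 ± 0.12 SE, edgeR adjusted p = 0.00432). WNK2 trans Sor and WT Ctr differed in ACAN (-0.98 ± 0.36 SE, edgeR adjusted p = 0.0321), DCN (-1.83 ± 0.67 SE, edgeR adjusted p = 0.0320) and HAPLN1 (0.54 ± 0.12 SE, edgeR adjusted p = 0.00107). Of these, DCN against WT Sor was lost without WT Sor replicate 3, WT Sor replicate 4 or WNK2 trans Ctr replicate 4 (adjusted p up to 0.0889). ACAN against WT Ctr was lost without WT Ctr replicates 1, 3 or 4 or WNK2 trans Sor replicates 2 or 3 (up to 0.102), and DCN without WT Ctr replicates 1 or 2 or WNK2 trans Sor replicates 1 or 4 (up to 0.0979, all edgeR).

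Other genes of the same families moved partly with these members. Of 5 other lecticans and link proteins 2 were tested, and HAPLN3, a link protein of vessels and other tissues, was lower with sorbitol within the transfection labels (-1.72 ± 0.15 SE, edgeR adjusted p = 5.17e-10) and in WNK2- cells than in WT in isotonic media (-0.86 ± 0.14 SE, edgeR adjusted p = 2.76e-05) and under sorbitol (-1.29 ± 0.15 SE, edgeR adjusted p = 7.10e-08). BCAN, the brain lectican brevican, was called once, lower in WNK2 trans Sor than in WT Sor (-2.82 ± 0.90 SE, edgeR adjusted p = 0.0186). It had few reads, at a mean of 0.0903 CPM in WNK2 trans Sor and 0.648 in WT Sor, and 97.1% of its exon bases lie inside other genes. Of 11 other small leucine-rich genes 3 were tested. PODNL1 was higher in WNK2 trans Ctr than in WT Ctr (0.93 ± 0.18 SE, edgeR adjusted p = 0.000952) and lower within the transfection labels with sorbitol (-2.20 ± 0.20 SE, edgeR adjusted p = 1.32e-09). In WNK2- cells PODNL1 and TSKU were both lower than in WT in isotonic media, at -0.76 ± 0.19 (SE, edgeR adjusted p = 0.00218) and -0.39 ± 0.14 (SE, edgeR adjusted p = 0.0290).

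Enzymes that start and extend the chondroitin chain were next. Of 13 genes for the linkage region and the chain, all tested, 3 were higher and 1 was lower with sorbitol in WT cells, 2 and 6 within the transfection labels. Over all tested genes 11.4% and 12.7% were higher and lower in the first of these and 24.3% and 23.7% in the second. In WNK2- against WT cells 2 were lower in isotonic media, a smaller share than the 21.5% of all tested genes. Under sorbitol 7 were lower, beside 22.7% of all tested genes. By edgeR's adjusted p 0 were higher in either medium, where 20.7% of all tested genes were higher without sorbitol and 23.7% with it. The xylosyltransferases XYLT1 and XYLT2 can each start a chain, and XYLT2 had more reads over all libraries (31717) than XYLT1 (4126). XYLT1 averaged 6.78 ± 2.18 CPM in WT Ctr, 23.2 ± 0.759 in WT Sor, 19.4 ± 1.69 in WNK2 trans Ctr and 7.81 ± 0.845 in WNK2 trans Sor (SD, n = 4). In WNK2- cells it was at 1.38 ± 0.363 and 1.22 ± 0.294 CPM. Its log2 fold changes were 1.77 ± 0.19 (SE, edgeR adjusted p = 2.28e-07) with sorbitol in WT cells, -1.31 ± 0.18 (SE, edgeR adjusted p = 2.04e-06) within the transfection labels and -4.23 ± 0.22 (SE, edgeR adjusted p = 2.81e-14) in WNK2- against WT cells under sorbitol. CSGALNACT1, which commits the chain to chondroitin, was lower in WNK2- cells in both media (-1.69 ± 0.12 SE, edgeR adjusted p = 6.26e-11, and -2.36 ± 0.13 SE, edgeR adjusted p = 7.46e-14).

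Of 14 tested genes for chondroitin and dermatan sulfation, counts were mixed: 4 higher and 3 lower in WNK2- against WT cells in isotonic media, 4 and 6 within the transfection labels. Over all tested genes 20.7% and 21.5% were higher and lower in the first of these and 24.3% and 23.7% in the second. With sorbitol in WNK2- cells 5 were higher, beside 8.25% of all tested genes. PAPSS2, which makes the sulfate donor, was higher in WNK2- Ctr than in WT Ctr (1.30 ± 0.093 SE, edgeR adjusted p = 3.38e-11) and SLC35B2, which carries the donor into the Golgi, was lower (-1.04 ± 0.094 SE, edgeR adjusted p = 2.51e-09). CHST3, the chondroitin 6-sulfotransferase, was lower with sorbitol within the transfection labels (-1.08 ± 0.14 SE, edgeR adjusted p = 4.14e-07). Of 7 tested keratan sulfate genes 4 were lower in WNK2- Ctr than in WT Ctr, 5 under sorbitol and 3 with sorbitol within the transfection labels, beside 21.5%, 22.7% and 23.7% of all tested genes. CHST6, a keratan sulfotransferase, gave -1.70 ± 0.16 (SE, edgeR adjusted p = 4.86e-09) and -2.23 ± 0.17 (SE, edgeR adjusted p = 3.98e-11) in WNK2- against WT cells, although 55.0% of its exon bases lie inside another gene. Of 7 tested genes that supply the UDP-sugars, 3 were higher and 0 lower in WNK2- cells in isotonic media, and 4 were higher and 0 lower under sorbitol, beside 20.7% and 21.5% of all tested genes higher and lower in isotonic media and 23.7% and 22.7% under sorbitol.

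Proteases that cleave aggrecan and versican did not move as 1 group. Of 5 tested, 2 were higher and 1 was lower with sorbitol in WT cells, and 2 were higher and 3 lower in WNK2- than in WT cells in isotonic media. Over all tested genes 11.4% and 12.7% were higher and lower in the first and 20.7% and 21.5% in the second. The aggrecanases ADAMTS4 and ADAMTS5 were both lower in WNK2- Ctr, at -2.32 ± 0.60 (SE, edgeR adjusted p = 0.00288) and -2.18 ± 0.25 (SE, edgeR adjusted p = 1.23e-07). ADAMTS4 had few reads, at a mean of 0.869 CPM in WT Ctr and 0.168 in WNK2- Ctr. Of the exon bases of ADAMTS5, 83.1% lie inside other genes. ADAMTS1 was higher with sorbitol in WT cells (0.42 ± 0.091 SE, edgeR adjusted p = 0.00157), within the transfection labels (1.62 ± 0.092 SE, edgeR adjusted p = 2.69e-13) and in WNK2- cells (0.93 ± 0.090 SE, edgeR adjusted p = 3.48e-08). Of the SOX factors that drive ACAN, SOX5 alone was tested. It was called in 1 comparison, higher with sorbitol within the transfection labels (1.15 ± 0.45 SE, edgeR adjusted p = 0.0374), where ACAN was lower. SOX9 was listed at 0 in every library, and since it lies wholly inside another gene of the annotation this gives no level.

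**Figure D4:**
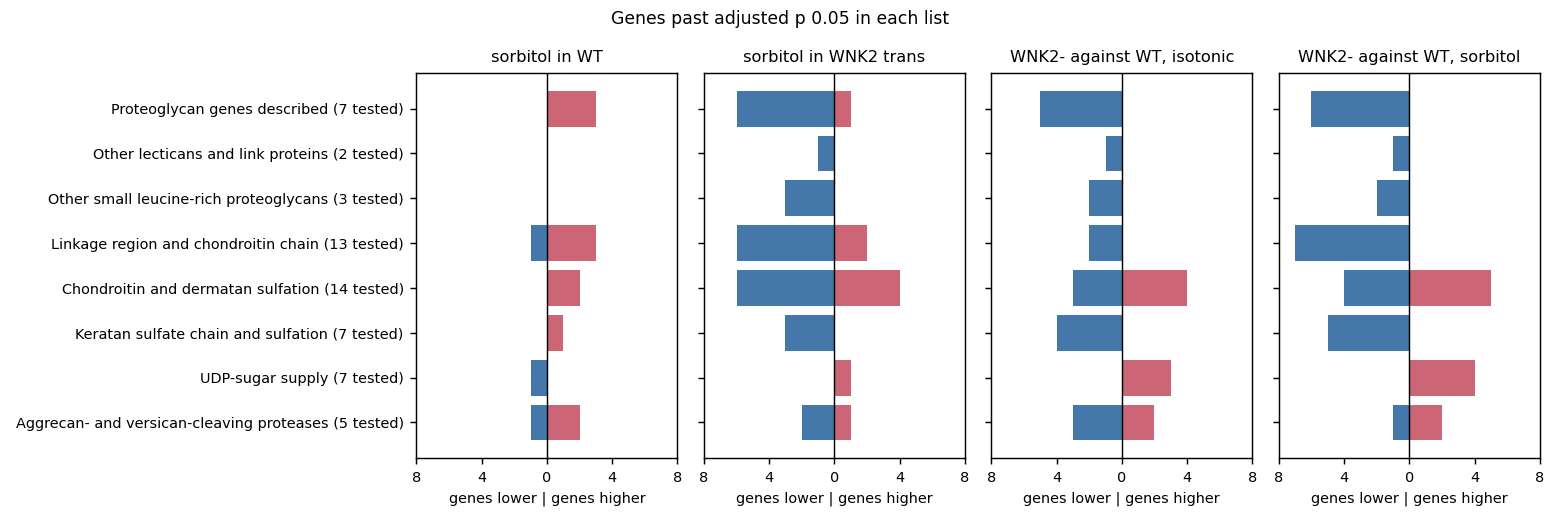
Number of genes called higher (red, to the right) and lower (blue, to the left) by edgeR in each fixed list, in 4 comparisons. In the WNK2- panels the proteoglycan genes have 5 and 6 of 7 lower without and with sorbitol, the keratan sulfate genes 4 and 5 of 7, and the chain enzymes 2 and 7 of 13, where 21.5% and 22.7% of all tested genes were lower.

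The falls in WNK2- cells were set beside those of genes around each member. Within 2 Mb of VCAN 11 other genes were tested in WNK2- Ctr against WT Ctr, HAPLN1 among them. Their median log2 fold change was -0.24 with 2 higher and 4 lower, and all 11 lay above VCAN. Over all tested genes 20.7% were higher and 21.5% lower in this comparison. Around HAPLN1 10 others, VCAN included, had a median of -0.33 with 1 higher and 4 lower. Around LUM 13 others, DCN included, had a median of -0.18 with 1 higher and 5 lower, and all 13 lay above LUM. Around ACAN 32 others had a median of 0.087, with 11 higher and 10 lower and 31 of them above ACAN. Around BGN the median of 58 others was 0.17 with 17 higher and 7 lower, and around PRG4 that of 17 was -0.17 with 1 higher and 3 lower. With sorbitol in WT cells the medians around the 7 genes lay between -0.093 and 0.25. The falls of VCAN and LUM were thus larger than that of any tested neighbour, and 36 of the 58 genes around BGN had a higher value than it. Whether the chromosome region has a part in these falls was not tested.

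For each tested member the most similar genes across the 24 libraries were found by Pearson's r of log2 CPM among 12155 genes. The points are 24 libraries in 6 groups and share their depth and group differences, so the values are descriptive. LUM was most like the cadherin CDH6 (r = 0.988, Spearman's rho = 0.951), SULF1 (0.983 and 0.914) and PTPRO (0.980 and 0.918). VCAN was most like GALC (0.977 and 0.880), HTR7 (0.976 and 0.954) and TMTC1 (0.975 and 0.923). HAPLN1 was most like HERC5 (0.980 and 0.975), SOD2 (0.975 and 0.942) and IFI44 (0.974 and 0.919), of which HERC5 and IFI44 are known as interferon-induced genes. The 3 genes nearest to BGN were EHBP1L1 (0.973 and 0.979), P3H3 (0.966 and 0.973) and the keratan sulfate sulfatase GALNS (0.961 and 0.944). ACAN was nearest to the pseudogene DUXAP9, whose reads may be shared with close copies (0.968 and 0.964), PLEKHG2 (0.957 and 0.939) and PLEKHA4 (0.957 and 0.939). DCN came nearest to GSN (0.924 and 0.887), LRRC23 (0.915 and 0.893) and IGFBP3 (0.909 and 0.903). PRG4, at few counts, had the weakest neighbours, ARHGEF17 (0.840 and 0.662), SYT7 (0.838 and 0.722) and POFUT2 (0.820 and 0.693).

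Markers of cell type differed between the groups in which the members differed, and their part in the results was not tested. None of the lists held a member except that of the synovial lining, which held PRG4. Of 16 cartilage chondrocyte markers 9 were tested, and SOX9 and CHAD were listed at 0, both wholly inside other genes. Their summed level lay at 21.9 to 46.3 CPM in WT Ctr and 39.0 to 43.1 CPM in WT Sor. It lay at 50.4 to 63.4 CPM in the libraries labelled WNK2 trans Ctr, which were highest, and 11.2 to 22.4 CPM in those labelled WNK2 trans Sor. Among the edited cells it was 17.5 to 23.6 CPM without sorbitol and 14.9 to 16.9 CPM with it. COL2A1, the collagen that defines cartilage, was present at 4.50 ± 1.47 CPM in WT Ctr (SD, n = 4) and was lower in WNK2- Ctr (-3.71 ± 0.29 SE, edgeR adjusted p = 1.40e-10) and with sorbitol within the transfection labels (-2.88 ± 0.24 SE, edgeR adjusted p = 3.65e-10). Of the 9 tested markers 1 was higher (SNORC) and 3 were lower in WNK2- Ctr than in WT Ctr, and 2 were higher (MATN1 and SOX5) and 6 lower with sorbitol within the transfection labels, beside 20.7% and 21.5% and 24.3% and 23.7% of all tested genes higher and lower. SNORC and MATN1 are named after their values were seen. Of 6 fibroblast markers 4 were tested, and THY1 was listed at 0. COL10A1, THY1, CD68 and SOX10 lie wholly inside other genes, as SOX9 and CHAD do, so that their 0 gives no level. Of the 4 tested fibroblast markers 3 were lower and 0 higher in WNK2- than in WT cells in isotonic media, and 4 and 0 under sorbitol. Over all tested genes 21.5% and 22.7% were lower and 20.7% and 23.7% higher in these comparisons. The sum of the fibroblast markers, most of it reads of COL1A1, ran without sorbitol at 2787 to 4009 CPM in WT, 5532 to 6713 CPM in WNK2 trans and 2678 to 3026 CPM in WNK2- cells. With sorbitol it ran at 3714 to 3966 CPM in WT, 1109 to 1873 CPM in WNK2 trans and 968 to 1168 CPM in WNK2- cells. Hypertrophic markers summed to 0 to 2.18 CPM in all libraries with COL10A1 and SPP1 at 0. Of the 2 tested, 1 was higher and 0 lower in WNK2- than in WT cells in either medium. The counts were the same with sorbitol within the transfection labels. Over all tested genes 20.7% were higher in isotonic media, 23.7% under sorbitol and 24.3% within those labels. ALPL averaged 0.0723 CPM in WT Ctr and 0.306 in WNK2- Ctr. Synovial lining markers other than PRG4 were led by CLIC5, at 11.2 ± 2.31 CPM in WT Ctr and 0.0964 ± 0.0369 in WNK2- Ctr. Endothelial markers summed to 24.9 to 41.2 CPM in the libraries labelled WNK2 trans Ctr and to 99.1 to 106 CPM in those given sorbitol. Untransfected WT cells had 36.0 to 42.2 CPM of them in isotonic media and 59.4 to 67.0 CPM under sorbitol, and no WNK2- library was over 45.4 CPM. By single genes, 3 of the 4 were called higher and 1 lower in WNK2- than in WT cells in isotonic media. Under sorbitol 2 were higher and 1 was lower. Over all tested genes 20.7% and 21.5% were higher and lower in the first and 23.7% and 22.7% in the second. Within the transfection labels 3 of the 4 were higher with sorbitol, CDH5 the most, from 1.15 ± 0.210 to 50.2 ± 4.47 CPM (SD, n = 4). Among neural markers NCAM1 fell from a mean of 91.7 CPM in WT Ctr to 19.0 CPM in WNK2- Ctr, a log2 fold change of -2.27 ± 0.10 (SE, edgeR adjusted p = 4.18e-15). The haematopoietic sum, mostly CD14, was highest in the libraries labelled WNK2 trans Ctr (13.3 to 21.9 CPM), with 3.50 to 6.09 CPM in those given sorbitol and 2.19 to 2.86 CPM in edited cells in isotonic media, beside 7.30 to 10.8 CPM in WT Ctr. Over all libraries epithelial markers summed to 608 to 1239.9 (mostly KRT8 and KRT18) and neural ones to 17.9 to 107 (mostly NCAM1, with SOX10 and S100B at 0).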

How the data were processed

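RNA-seq libraries were made from poly(A)-enriched RNA of T/C-28a2 cells. The authors deposited raw counts per Ensembl gene, aligned to GRCh38 with HISAT2 2.2.1 and counted with HTSeq 2.0.2 per the labels (the paper names another HTSeq release); annotation release and strand setting are not given in the sources used here. Replicates were not pooled.

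Here low genes were removed with filterByExpr at a minimum count of 10 and a minimum total of 15, libraries were scaled with TMM, and 6 group means were fitted by the quasi-likelihood method of edgeR 4.0.16 in R 4.3.3; contrasts gave 9 comparisons and 2 added after the WNK2 counts were seen. P-values were adjusted by Benjamini-Hochberg over 16600 genes, called at 0.05. Standard errors are the log2 fold change over the root of F, and 95% intervals are 1.96 of them. Ratios of summed counts carry exact binomial (Clopper-Pearson) intervals, and a count of 0 allows 3 reads. Positions and exon lengths are of GENCODE 29, and 58279 identifiers had one. Promoters are RefSeq's; DCN and LUM had none there, and those of VCAN, HAPLN1 and FMOD lie in exons. The fits were tested on simulated counts with 87 changes of 1 and 112 of 2 on the log2 scale, all in 1 group. Of those of 1, 70.1% were recovered for sorbitol in WT cells and 55.2% for the interaction with transfection. Of those of 2, 89.3% and 80.4% were recovered, and 4.73% and 5.48% of calls were false. Far fewer genes were changed there than are called here, so these shares need not hold for these data.

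The genes and lists were chosen with earlier results of these data known. Named genes are all members, up to 3 called genes of each list and comparison with the largest changes, the 3 genes most like each member, and WNK2. Lists covered lecticans, small leucine-rich genes, chain and sulfation enzymes, UDP-sugar supply, proteases, SOX regulators and markers of 8 cell types. Alternatives were DESeq2 1.42.0, RLE and upper-quartile scaling, other filters, fits of the compared groups, a replicate block, thinning and leaving out each library. The values of 1 gene of the UDP-sugar list are not reported here.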

Additional observations from a re-analysis of the deposited data

Results flagged for a closer look

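In 50 sets of 4 libraries of 1 gene and group with a spread, 5 had a library that stood apart from the other 3 by Dixon's test, and chance alone marks about 5% of them. ACAN in WT Ctr had a lowest library of 0.967 CPM, replicate 2, and in the libraries labelled WNK2 trans Ctr a highest library of 12.1 CPM, replicate 1. BGN in the libraries labelled WNK2 trans Ctr had a highest library of 402 CPM, replicate 3. The other 2 were single reads: DCN in WNK2- Ctr, with 1 read (0.0454 CPM) in replicate 4, and FMOD in WT Ctr, with 1 read (0.0723 CPM) in replicate 4.

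The effect of sorbitol differed between groups by edgeR's test of the interaction for 8 results. Between transfected and untransfected cells the interaction was -3.06 on the log2 scale for DCN, -2.17 for VCAN, -3.98 for PRG4, -1.94 for LUM, 1.63 for HAPLN1, -3.27 for ACAN and -1.42 for BGN. All 7 rest on the libraries labelled WNK2 trans Ctr, whose WNK2 counts go against the label, and on WT Sor, which had less WNK2 than WT Ctr, and whether labels or files of these groups were exchanged was not tested. Between WNK2- and WT cells it was 0.67 for HAPLN1.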

How the results depend on the processing

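Called values of single genes kept their direction under every alternative run, and among the single values under alternatives 1194 also kept their side of the threshold, 49 lost the call and 16 gained one. The 17 that changed sign were never called, and arose without 1 library: over those fits BGN ran from -0.089 to 0.17 in WNK2- against WT cells in isotonic media, VCAN from -0.13 to 0.61 in the interaction with genotype and from -0.18 to 0.14 in WNK2 trans Ctr against WT Sor, and with sorbitol in WNK2- cells BGN from -0.11 to 0.027 and LUM from -0.64 to 0.37. Among the 7 genes, 1 interaction with genotype was called, and 2 with DESeq2, with no filter, in a fit of the compared groups and with the replicate block, BGN being the gene added. With sorbitol in WNK2- cells 2 were called, against 1 with no filter or the replicate block and 0 after thinning. In WNK2 trans Ctr against WT Sor 1 remained with no filter, and in WNK2 trans Sor against WT Ctr 1 in a fit of the compared groups. A minimum of 10 counts in every library left HAPLN1 and BGN alone in the test, and 1 was called with sorbitol in WT cells, in WNK2- cells, in WNK2- against WT cells in isotonic media and in both added comparisons, and 2 with sorbitol within the transfection labels, in WNK2- against WT cells under sorbitol, in both comparisons of transfected with untransfected cells and in the interaction with transfection. Without 1 library the genes called of the 7 were 0 to 2 for sorbitol in WNK2- cells, 0 to 2 for the interaction with genotype, 1 to 2 for WNK2 trans Ctr against WT Sor and 1 to 4 for WNK2 trans Sor against WT Ctr. Counts over all genes moved in a fit of the compared groups from 2473 to 4824 for sorbitol in WNK2- cells, from 2082 to 747 for WNK2 trans against WT in isotonic media and from 6509 to 3018 for WNK2 trans Sor against WT Ctr, and without 1 library from 1436 to between 849 and 1908 for the interaction with genotype. The cause of these shifts was not tested.

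The replicate numbers gave no clear pairing of the samples. Deviations from group means correlated between same-numbered libraries by -0.287 to 0.458 (median 0.0131), with 10 of 60 pairs above 0.1. Between libraries of different number they correlated by -0.317 to 0.395 (median 0.00107), with 24 of 180 pairs above 0.1. A count of libraries that correlated best with their own number in every other group at once gave 0 of 24. That condition is so strict that a 0 cannot decide the question. The replicate block changed the call of HAPLN1 with sorbitol in WNK2- cells (edgeR adjusted p = 0.0530) and of BGN in the interaction with genotype (-0.74, edgeR adjusted p = 0.0490), and no other call of the 7 genes. Depth limits DCN, PRG4, FMOD and PRELP, with few reads in each library, and ACAN, VCAN and LUM in WNK2- cells.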

Other observations

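Within groups, the deviations of HAPLN1 and BGN from their group means went in opposite directions (Pearson's r = -0.827, Spearman's rho = -0.855, 24 libraries in 6 groups), and those of ACAN and WNK2 in the same direction (0.723 and 0.702). ACAN and WNK2 moved against each other between the unedited groups, where ACAN was lowest in WNK2 trans Sor and highest in the libraries labelled WNK2 trans Ctr. These are descriptions chosen among 28 pairs after their values were seen, and the libraries of a pair share their depth and scaling factor.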
